A study of Rattus norvegicus with 8 samples.

Results

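The genes described are 10 of the NF-κB system: 4 genes for its subunits (Nfkb1, Nfkb2, Rela and Relb), 4 for its inhibitors (Nfkbia, Nfkbib, Nfkbie and Tnfaip3) and 2 for adhesion molecules that are among its classic targets (Icam1 and Vcam1). They were chosen by name, and a probe set was taken as a gene's when the platform annotation gave it that 1 symbol alone. This found 9 probe sets, 1 for each gene apart from Nfkbie, among 31042 on the Rat Genome 230 2.0 array, on which 9 of 14217 genes are thus members. Nfkbie has no such probe set in the annotation at hand. The tissue was brain of adult male Wistar rats of 250 to 300 g, taken 48 hours after injection into the striatum. In 1 group of 4 arrays the animals had been given 5 µl holding 50000000 particles of a baculovirus vector, an insect virus that enters mammalian cells without replicating there, made inactive by 1 hour under ultraviolet light of 254 nm. The 4 arrays of the other group followed an injection of 5 µl of phosphate-buffered saline (PBS), so both groups carry the injection wound. The strain is not given in the label of PBS replicate 2. The design text mentions 7 rats and PBS on the contralateral side without tying arrays to animals. Some of the 8 arrays may therefore share a rat, and p-values measure the spread between these samples only. A PBS array may also come from a brain that received the vector on its other side. A change common to both sides of such a brain would not show in the comparison.

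NF-κB is a family of paired transcription factors that wait in the cytoplasm, bound by inhibitor proteins of the IκB family. In the canonical branch, signals from receptors for tumour necrosis factor, interleukin-1 or microbial products activate a kinase that marks IκB for destruction, and the freed Rela and Nfkb1 pair enters the nucleus. It switches on inflammatory genes together with Nfkbia and Tnfaip3, which shut the pathway down again, so that transcripts of these inhibitors are commonly read as a sign of recent activity. In brain, Icam1 and Vcam1 on activated endothelium hold white blood cells that pass along the vessel wall.

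Upstream sequences are shown for the 2 feedback inhibitors and the 2 adhesion targets, whose transcripts the pathway is known to raise. Other members, Nfkb2 and Nfkbie among them, are known targets as well and are given by their matches. They are the 250 bases before the gene start in RefSeq on the GRCr8 build, on the gene's own strand, 5′ to 3′, and capitals mark matches to the NF-κB consensus of 10 bases or, in Nfkbia and Icam1, to GGAAATTCC, a 9-base motif chosen after the Icam1 sequence had been seen. Nfkbia lies at chr6:78597073-78597322 on the minus strand, Tnfaip3 at chr1:15543980-15544229 on the minus strand, Vcam1 at chr2:206742784-206743033 on the minus strand and Icam1 at chr8:27829595-27829844 on the plus strand.
Nfkbia: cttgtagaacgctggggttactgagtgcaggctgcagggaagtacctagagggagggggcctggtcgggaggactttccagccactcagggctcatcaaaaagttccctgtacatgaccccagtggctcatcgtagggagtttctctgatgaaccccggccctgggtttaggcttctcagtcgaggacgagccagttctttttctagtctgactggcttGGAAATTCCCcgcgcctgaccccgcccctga
Tnfaip3: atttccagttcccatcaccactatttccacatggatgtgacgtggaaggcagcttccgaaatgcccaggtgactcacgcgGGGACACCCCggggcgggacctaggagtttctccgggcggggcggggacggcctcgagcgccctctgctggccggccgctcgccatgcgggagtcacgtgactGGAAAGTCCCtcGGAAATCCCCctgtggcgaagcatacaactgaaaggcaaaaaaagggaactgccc
Vcam1: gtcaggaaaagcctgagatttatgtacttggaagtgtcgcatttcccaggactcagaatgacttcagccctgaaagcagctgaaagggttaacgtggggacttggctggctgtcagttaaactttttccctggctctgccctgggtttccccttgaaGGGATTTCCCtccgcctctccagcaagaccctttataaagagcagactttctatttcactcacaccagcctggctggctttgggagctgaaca
Icam1: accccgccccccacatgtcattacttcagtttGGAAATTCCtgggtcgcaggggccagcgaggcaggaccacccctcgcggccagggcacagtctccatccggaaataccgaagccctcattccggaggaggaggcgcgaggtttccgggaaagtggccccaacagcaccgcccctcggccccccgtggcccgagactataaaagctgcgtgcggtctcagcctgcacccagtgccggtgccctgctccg

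Both strands were searched, and overlapping matches were counted. Of the 10 members, 9 had an upstream sequence, 8 matched by gene ID and Nfkbie by symbol. The consensus was found in 5 of these 9, namely Nfkb2, Nfkbia, Nfkbie, Tnfaip3 and Vcam1, against 3.54% of 33469 upstream sequences. Nfkbia had its match 31 bases before the gene start, Vcam1 at 93 and Nfkb2 at 20 bases, counted to the first base of the match, while Tnfaip3 had 3 matches at 170, 67 and 55 bases. Nfkb1, Rela, Nfkbib and Icam1 had no match to the consensus in this window. GGAAATTCC stands 218 bases before Icam1 and overlaps the consensus match of Nfkbia, and 0.287% of all upstream sequences hold it. These matches describe the letters in the window and do not show binding. The members were chosen by name and include known targets, and the other sequences were not matched to them. The shares are thus a description and no test of enrichment.

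**Figure D1:**
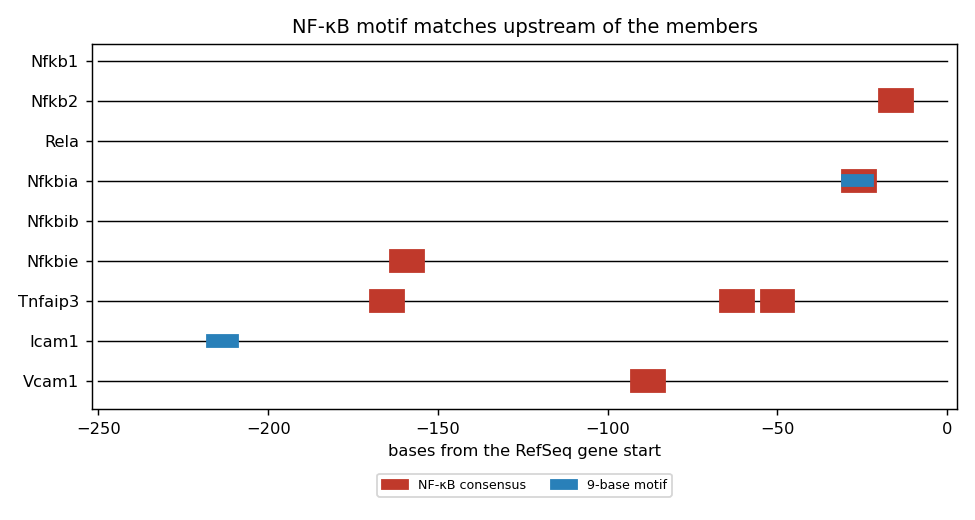
Positions of motif matches in the 250 bases before the RefSeq gene start of 9 members. The horizontal axis gives bases from the start, red boxes are matches to the NF-κB consensus and blue boxes matches to the 9-base motif. Tnfaip3 holds 3 red boxes, Icam1 a blue box alone, and Nfkb1, Rela and Nfkbib none.

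The comparison asked whether transcripts of this system differed between the arrays after inactivated vector and those after saline, which may share brains. Levels are intensities on a linear scale, and log2 fold changes were computed from log2(intensity + 16), a scale that makes changes of dim probe sets look smaller. Of 18625 probe sets above the level filter, an intensity of about 26.0, none passed an adjusted p of 0.05 in limma in either direction (0.00%). That includes all 7 members above the filter. At an unadjusted p under 0.05 there were 1254 probe sets (6.73%), 2.51% higher and 4.22% lower, and 0 of the 7 members. The methods' t-test with Benjamini-Hochberg adjustment likewise gave 0 probe sets. The groups did not overlap for 3.86% of all probe sets tested, 1.55% higher and 2.31% lower, and for 0 of the 7 members. The mean was higher after inactivated baculovirus for 4 members and lower for 3, where 53.7% of all probe sets tested were higher. The members' median log2 fold change was 0.05, beside 0.01 over all probe sets tested. The members' median was -0.01 without baculovirus replicate 1, 0.007 without baculovirus replicate 2 and 0.0006 with a filter at the 60th percentile, which 6 members passed.

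**Figure D2:**
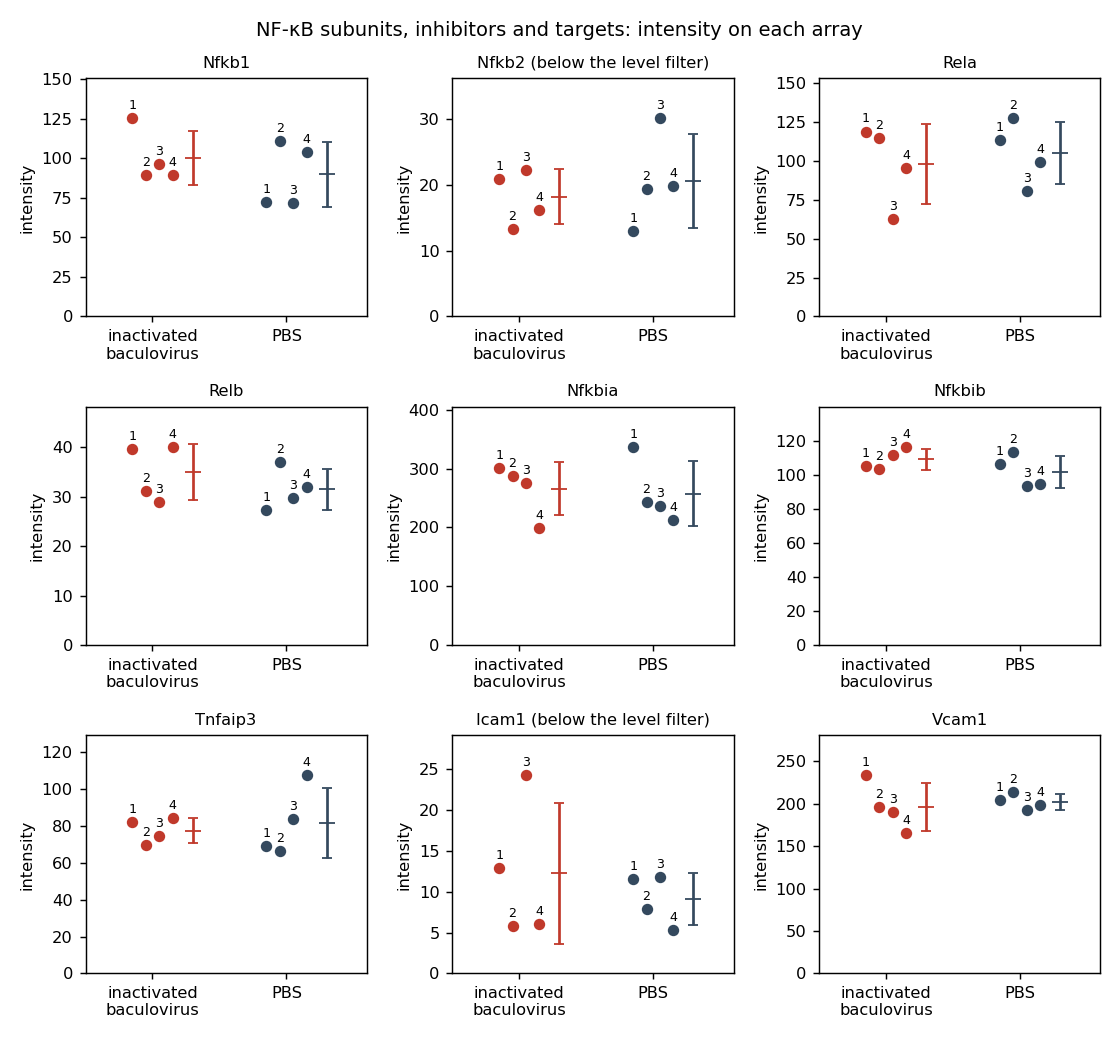
Intensity of each of 9 members on each array, 1 panel per gene with a linear axis that starts at 0. Points are arrays with their replicate number, red for inactivated baculovirus and dark for PBS, and the bar beside them is the mean with its SD (n = 4). The groups overlap in all 9 panels, and Icam1 has its single high point on baculovirus replicate 3.

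Among the subunits, Nfkb1 had the largest difference of the tested members. It encodes p105, which is cut to p50, the DNA-binding partner of Rela. Its intensity on replicates 1 to 4 was 125, 89.6, 96.2 and 89.5 after inactivated baculovirus, and 72.3, 111, 72.0 and 104 after PBS. All 4 baculovirus arrays were near or above the PBS mean on the log2 scale, while the PBS arrays fell into 2 high and 2 low values that enclosed 3 of the baculovirus ones. The means were 100 ± 17.1 and 89.8 ± 20.6 (SD, n = 4 each). The fitted log2 difference was 0.14, with a 95% interval from -0.16 to 0.45 (limma adjusted p = 0.856). Without baculovirus replicate 1 it was 0.05, and without PBS replicate 2 it was 0.24.

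Rela encodes p65, the subunit that carries the main activation domain of the canonical pair. It measured 119, 115, 62.8 and 95.3 after inactivated baculovirus, and 114, 128, 80.9 and 99.4 after PBS. Replicate 3 was the lowest array of each group, and the ranges overlapped widely. Its fold change was -0.11 on the log2 scale, with an interval from -0.46 to 0.25 (limma adjusted p = 0.918). It turned to 0.06 without baculovirus replicate 3, the array with the lowest Rela of all 8.

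Relb is the activating subunit of the alternative branch, in which it pairs with the product of Nfkb2. Relb measured 39.7, 31.1, 29.0 and 40.2 after inactivated baculovirus, and 27.3, 37.0, 29.8 and 32.0 after PBS. Baculovirus replicates 1 and 4 were the highest arrays, and the other baculovirus arrays lay inside the PBS range. On the log2 scale the difference was 0.10, with an interval from -0.15 to 0.35 (limma adjusted p = 0.882). It lay between 0.05, without baculovirus replicate 4, and 0.16, without baculovirus replicate 3, when 1 array was left out, and was 0.04 with array weights.

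Nfkb2 encodes p100, the precursor of p52. Its probe set is of a type that can read several transcripts of the gene, and it was below the level filter. It measured 21.0, 13.3, 22.4 and 16.2 after inactivated baculovirus, and 13.1, 19.4, 30.2 and 19.8 after PBS. Both the lowest and the highest array were PBS arrays. Fitted without the filter, it had a log2 fold change of -0.09 with an interval from -0.42 to 0.25 (limma adjusted p = 0.951), and it was 0.03 without PBS replicate 3.

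Among the inhibitors, Nfkbia encodes IκBα, the main inhibitor of the Rela and Nfkb1 pair and itself a target of it, with the consensus match printed above. Its intensity was 301, 288, 275 and 199 after inactivated baculovirus, and 338, 244, 236 and 213 after PBS. The highest array belonged to PBS and the lowest to baculovirus, while baculovirus replicates 1 to 3 lay above 3 of the 4 PBS arrays. The means were 266 ± 45.5 and 258 ± 55.1 (SD, n = 4 each). Nfkbia thus had a log2 fold change of 0.05, with an interval from -0.26 to 0.35 (limma adjusted p = 0.965). Its direction rested on single arrays. It was -0.01 without baculovirus replicate 1 and -0.03 without PBS replicate 4, against 0.17 without baculovirus replicate 4 and 0.18 without PBS replicate 1.

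Tnfaip3 encodes A20, a ubiquitin-editing enzyme that ends signalling from tumour necrosis factor and Toll-like receptors, and its upstream sequence held 3 consensus matches. It measured 82.0, 69.4, 74.3 and 84.1 after inactivated baculovirus, and 69.0, 66.5, 83.4 and 107 after PBS. PBS replicate 4 was the highest array, and the 4 baculovirus arrays lay between PBS values. Tnfaip3 had a log2 fold change of -0.05, with an interval from -0.32 to 0.23 (limma adjusted p = 0.960), and it turned to 0.07 without PBS replicate 4. That array also stood apart in the choroid plexus gene Ttr, at 47.7 against 1563 to 1968 on the other 7 arrays. The part of the dissection in the Tnfaip3 value was not tested.

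Nfkbib encodes IκBβ, a slower inhibitor of the canonical pair. It measured 105, 103, 112 and 117 after inactivated baculovirus, and 106, 113, 93.5 and 94.6 after PBS. It varied least among the members, with a highest array 1.25 times the lowest, and 4 of 4 baculovirus arrays lay above the PBS mean. Its groups still overlapped, through PBS replicates 1 and 2. For Nfkbib the log2 fold change came to 0.09, with an interval from -0.11 to 0.29 (limma adjusted p = 0.860).

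Both adhesion targets gave no separation of the groups. Vcam1, which binds the integrin VLA-4 on lymphocytes and monocytes, measured 234, 196, 190 and 166 after inactivated baculovirus, and 205, 214, 193 and 198 after PBS. The baculovirus arrays held both the highest and the lowest value, with an SD of 28.3 about a mean of 197 against an SD of 9.35 about a mean of 203 after PBS (n = 4 each). Vcam1 had a log2 fold change of -0.05, with an interval from -0.26 to 0.16 (limma adjusted p = 0.938), and it turned to 0.02 without baculovirus replicate 4.

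Icam1, the endothelial and glial ligand of the leukocyte integrin LFA-1, was below the level filter, brighter than only 20.2% of the probe sets. It measured 12.9, 5.79, 24.3 and 6.09 after inactivated baculovirus, and 11.5, 7.87, 11.8 and 5.28 after PBS. Baculovirus replicate 3 stood well above the other 7 arrays, replicate 1 just above the PBS range, and replicates 2 and 4 near its lower end. Replicate 3 was also the array with the lowest Rela. Fitted without the filter, Icam1 had a log2 fold change of 0.13 with an interval from -0.28 to 0.54 (limma adjusted p = 0.932), which turned to -0.06 without baculovirus replicate 3. With a pseudocount of 1 in place of 16 it was 0.23 ± 0.44 (SE). At this brightness a change of Icam1 was not detectable unless it was large, and detection calls were not used here.

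**Figure D3:**
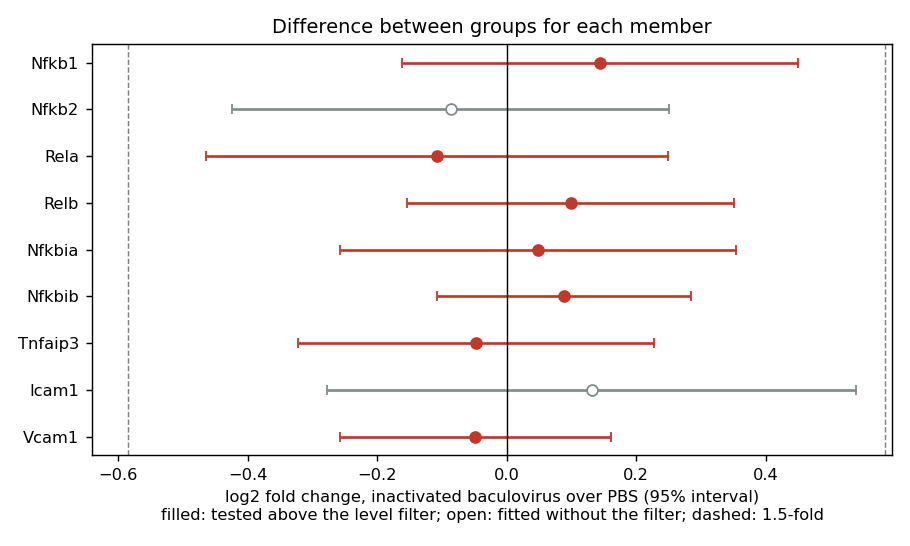
Log2 fold change of inactivated baculovirus over PBS for 9 members with 95% intervals from limma. Filled points are the 7 members above the level filter, and open points are Nfkb2 and Icam1 fitted without it. Dashed lines mark 0.58, the log2 value of 1.5-fold. All 9 intervals contain 0 and lie inside the dashed lines on this scale. It makes changes of dim probe sets look smaller, so the lines do not bound a 1.5-fold change of intensity for Nfkb2 and Icam1. With a pseudocount of 1 in place of 16, Nfkb2 was at -0.14 ± 0.28 and Icam1 at 0.23 ± 0.44 (SE).

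The 95% intervals show how precise these arrays were. For the 7 members above the filter they ran from -0.46 to 0.45 on this scale, inside the log2 value of 0.58 that stands for 1.5-fold. With a pseudocount of 1 they ran from -0.54 to 0.52. By the methods' t-test, which does not share the spread over probe sets, they ran from -0.63 for Rela to 0.57 for Nfkb1, so that Rela's interval reached past 1.5-fold lower. Changes of a size inside these intervals could have been missed by these arrays.

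Across the 8 arrays baculovirus replicate 1 was above the members' own means for 9 of 9 members, by as little as 0.001 on the log2 scale for Nfkbib, and the other 7 arrays for 2 to 6 of them. Of 36 pairs of members, 21 had a positive Pearson's r of log2 levels. At an unadjusted exact permutation p under 0.05 there were 0 pairs by r and 1 by Spearman's rho, and none passed after adjustment by either. The median Pearson's r was 0.08. The strongest pair by r was Nfkb1 with Relb, at r = 0.674 (exact permutation p = 0.0733, adjusted over 36 pairs 0.818) and a Spearman's rho of 0.5 (exact p = 0.216, adjusted 0.811). Leaving out the 2 arrays most distant from the median of Nfkb1, baculovirus replicate 1 and PBS replicate 3, gave r = 0.491. The strongest pair by rho was Rela with Vcam1, at rho = 0.833 (exact permutation p = 0.0154, adjusted over 36 pairs 0.554) and r = 0.523 (exact p = 0.191, adjusted 0.818), with r = 0.788 without baculovirus replicate 3 and PBS replicate 3. The 2 feedback inhibitors Nfkbia and Tnfaip3 went opposite ways, at r = -0.605 (exact permutation p = 0.109, adjusted 0.818) and rho = -0.667 (exact p = 0.0831, adjusted 0.811), with r = -0.586 without baculovirus replicate 4 and PBS replicate 1. Rela with Icam1 had r = -0.644 (exact permutation p = 0.0849, adjusted 0.818) and rho = -0.262 (exact p = 0.536, adjusted 0.878). Without baculovirus replicate 3 and PBS replicate 3 the sign of r turned, to 0.530.

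**Figure D4:**
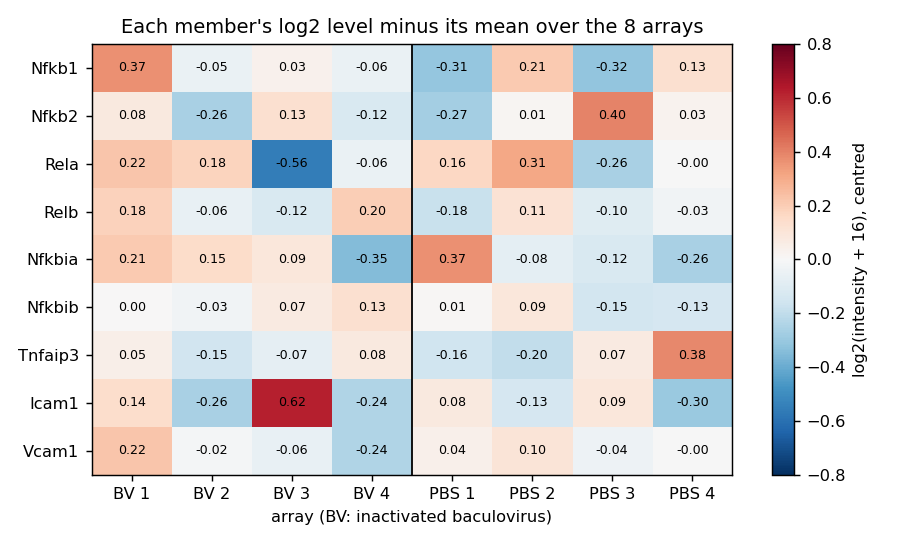
Log2 level of 9 members on 8 arrays, each minus the member's mean over all arrays. Rows are genes, columns are arrays, red is above and blue below the mean, and the vertical line divides inactivated baculovirus on the left from PBS on the right. Baculovirus replicate 1 is at or above the mean throughout, and the darkest cells are Icam1 and Rela on baculovirus replicate 3, of opposite colour.

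The genes most like Nfkbia in their log2 level over the 8 arrays, out of 10539 genes searched, were Rpp40 at r = 0.966 and rho = 0.976, Herpud1 at r = 0.963 and rho = 0.976, and Orm1 at r = 0.940 and rho = 0.929. Rpp40 encodes a subunit of ribonuclease P, Herpud1 a protein of endoplasmic reticulum quality control and Orm1 an acute-phase plasma protein. Without baculovirus replicate 4 and PBS replicate 1 their r values were 0.920, 0.933 and 0.919. For Icam1 they were Ferry3 at r = 0.973 and rho = 0.857, Grik4 at r = 0.921 and rho = 0.786, and Cdc5l at r = 0.912 and rho = 0.857. Grik4 encodes a kainate receptor subunit and Cdc5l a splicing protein. Without baculovirus replicate 3 and PBS replicate 4 these r values were 0.911, 0.856 and 0.868. Each is the highest of a long search over 8 arrays and is given as a description only.

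Upstream of the subunits, the kinases and their partners had 4 genes with a higher mean and 4 with a lower one, of 8 on the array, and their median log2 fold change was -0.03, which turned to 0.004 without PBS replicate 2. Chuk, the IKKα kinase that the alternative branch depends on, had the smallest p of this list. It measured 151, 119, 125 and 107 after inactivated baculovirus, and 170, 158, 193 and 142 after PBS. The groups overlapped only through baculovirus replicate 1 and PBS replicate 4. Its log2 fold change of -0.36, with a 95% interval from -0.60 to -0.12, did not pass (limma adjusted p = 0.686).

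Ikbkb, the IKKβ kinase of the canonical branch, had a mean on the other side. It measured 43.1, 44.7, 44.4 and 47.6 after inactivated baculovirus, and 41.5, 39.9, 32.7 and 39.2 after PBS, so that the groups did not overlap. The log2 fold change was 0.17 ± 0.10 (SE, limma adjusted p = 0.772), and the gene's other probe set had the same direction. Tbk1, a related kinase that activates interferon regulatory factors, measured 235, 220, 230 and 196 after inactivated baculovirus, and 248, 262, 251 and 237 after PBS, also without overlap. Its log2 fold change was -0.17 ± 0.08 (SE, limma adjusted p = 0.737). Of the 8 kinases and partners 1 was thus separated upward and 1 downward, where 1.55% and 2.31% of all probe sets tested were.

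Receptors and adaptors had 5 genes with a higher mean and 6 with a lower one among the 11 tested of 19 on the array, with a median log2 fold change of -0.003, between -0.07 and 0.04 when 1 array was left out. Tnfrsf1a, the main receptor for tumour necrosis factor, stood at 0.23 ± 0.15 (log2 fold change ± SE). Irak1, a kinase below the interleukin-1 receptor, stood at -0.14 ± 0.08, and its other probe set had the opposite direction. Birc2, a ubiquitin ligase of the receptor complex, stood at -0.14 ± 0.09. Ubiquitin editing genes and other negative regulators had 7 higher and 4 lower among 11, with a median of 0.03. Rnf31, Rbck1 and Sharpin, the 3 parts of the linear ubiquitin ligase, stood at 0.15 ± 0.09, 0.16 ± 0.10 and 0.12 ± 0.08, and all 3 overlapped between groups. Of the remaining family genes, Bcl3, a nuclear IκB protein, stood at -0.13 ± 0.20, with both of its other probe sets in the opposite direction, and Nfkbiz, another nuclear IκB protein, at 0.01 ± 0.16. No gene of these 4 lists, with 8, 11, 11 and 2 genes tested, passed the adjusted threshold. In all 1 gene, Chuk, was under an unadjusted p of 0.05, where 6.73% of all probe sets tested were.

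**Figure D5:**
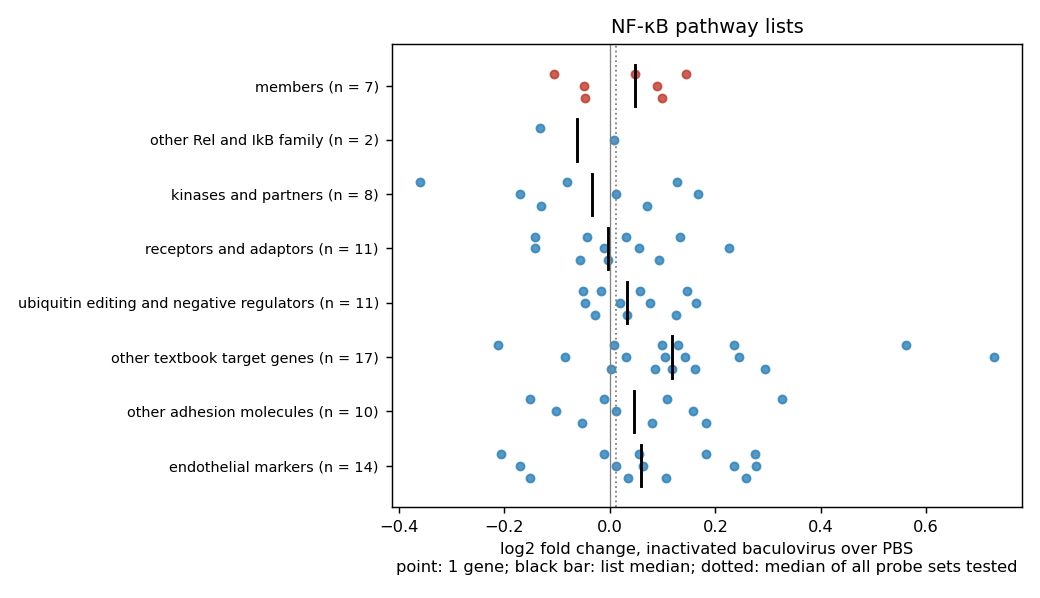
Log2 fold change of inactivated baculovirus over PBS for the tested genes of the members, of 5 lists of NF-κB pathway genes, of other adhesion molecules and of endothelial markers. Each point is a gene, black bars are list medians, and the dotted line is the median of all probe sets tested, 0.01. The list of other target genes has the highest median of the lists drawn, 0.12, with Ccl5 and Cxcl10 as its points farthest to the right.

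Other textbook target genes had 15 with a higher mean and 2 with a lower one among 17 tested, with a median log2 fold change of 0.12. The other 14 of 31 on the array, Il1b, Il6 and Tnf among them, were below the level filter. None of the 17 passed over all probe sets. Under an unadjusted p of 0.05 were 6.73% of all probe sets tested and 1 of the 17. That was Ccl5, a chemokine for T cells and monocytes that interferons raise as well, with 129, 68.8, 83.0 and 30.0 after inactivated baculovirus, and 72.6, 24.7, 31.4 and 27.5 after PBS. Its log2 fold change was 0.73 ± 0.30 (SE, unadjusted p = 0.0318, limma adjusted p = 0.719), and the groups overlapped. C3, the central complement component, stood at 0.29 ± 0.15. Ptgs2, the inducible cyclooxygenase, stood at -0.21 ± 0.11. The list's level, the mean over its genes of log2 values set to a mean of 0 over the arrays, was 0.33, 0.01, 0.15 and -0.18 after inactivated baculovirus, and -0.16, -0.17, -0.04 and 0.06 after PBS. Baculovirus replicate 1 was the highest and replicate 4 the lowest of the 8. Without baculovirus replicate 1 the list had 10 genes of 17 with a higher mean and a median of 0.01.

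Other adhesion molecules and leukocyte integrins had 6 higher and 4 lower among the 10 tested of 15 on the array, with a median of 0.05 and none past the threshold. Alcam, an adhesion molecule of neurons and endothelium, measured 607, 568, 626 and 569 after inactivated baculovirus, and 637, 699, 642 and 662 after PBS, without overlap. Its log2 fold change was -0.15 ± 0.07 (SE, limma unadjusted p = 0.0393, limma adjusted p = 0.721). Of all probe sets tested, 2.31% were lower without overlap and 4.22% were lower at an unadjusted p under 0.05. Itgal, the alpha chain of the Icam1 receptor LFA-1, stood at 0.33 ± 0.20, and Pecam1, which joins endothelial cells, at 0.18 ± 0.12. The endothelial selectins Sele and Selp were below the level filter, at 2.5 and 14.5 in mean intensity after inactivated baculovirus and 1.1 and 16.6 after PBS.

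In this bulk tissue, fewer cells of a type and less RNA per cell cannot be told apart. Markers of endothelium, a cell type known to carry Icam1 and Vcam1, had 10 of 14 with a higher mean. Of all probe sets tested, 53.7% had a higher mean. Those with the smallest p of this list were Tie1 at 0.28 ± 0.11, Ly6e at 0.28 ± 0.13 and Kdr at 0.26 ± 0.13 (log2 fold change ± SE). The 4 lower markers were Slco1a4 at -0.21 ± 0.11, Abcb1a at -0.17 ± 0.13, Flt1 at -0.15 ± 0.14 and Tek at -0.01 ± 0.15. The summed intensity of the 14 endothelial markers ran from 2297 to 2460 after inactivated baculovirus and from 2214 to 2300 after PBS. Bright genes weigh most in such a sum. Ly6e, the brightest of them, had means of 658 after inactivated baculovirus and 546 after PBS, so the sums do not describe the list evenly. Of microglia and macrophage markers 10 of 12 were higher, with sums of all 13 on the array from 2300.3 to 3253 after inactivated baculovirus and from 1987 to 3132 after PBS. Cx3cr1 stood at 0.23 ± 0.11, P2ry12 at -0.26 ± 0.13 and Tyrobp at 0.22 ± 0.14, and the only other probe set of P2ry12 had the opposite direction. T cell and neutrophil markers had 1 of 8 above the level filter, Lck, at -0.003 ± 0.09, and sums from 142 to 181 after inactivated baculovirus and from 114 to 170 after PBS. The part of these cells in the members' values was not tested.

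All 11 striatal neuron markers on the array were above the level filter. So were all 9 astrocyte and all 14 endothelial markers, so passing this filter does not identify the striatum. The striatal markers had 2 higher and 9 lower, with Bcl11b at -0.39 ± 0.11, Pdyn at -0.30 ± 0.12 and Drd1 at -0.18 ± 0.13. Their sums ran from 5348 to 7100 after inactivated baculovirus and from 5598 to 7355 after PBS. The only other probe set of Pdyn and 1 of 2 others of Bcl11b had the opposite direction. Astrocyte markers had 4 higher and 5 lower, with Slc1a2 at 0.12 ± 0.08, Aqp4 at -0.09 ± 0.07 and Gja1 at -0.08 ± 0.07, where 1 of 2 other probe sets of Gja1 had the opposite direction. Oligodendrocyte markers had 3 higher and 4 lower, with Mag at 0.10 ± 0.08, Mog at -0.04 ± 0.07 and Cnp at 0.02 ± 0.06. Choroid plexus markers had 4 higher and 0 lower, among them Folr1 (0.45 ± 0.26), Steap1 (0.30 ± 0.17) and Aqp1 (0.22 ± 0.13). The remaining marker, Ttr, stood at 1.13 ± 0.82. Its mean after PBS rested on PBS replicate 4, at 47.7 against 1563 to 1968 on the other arrays. The sums of this list ran from 1763 to 2234 after inactivated baculovirus and from 159 to 2116 after PBS, the lowest on PBS replicate 4. No marker passed over all probe sets. Arrays correlated at r between 0.970 and 0.986 across the probe sets tested, and no 2 held identical values.

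The beta-actin 3′ to 5′ difference, a log2 measure of RNA integrity and labelling, ran from 0.364 to 0.722 after inactivated baculovirus and from 0.408 to 0.624 after PBS. Its correlation with the members' levels ranged from r = -0.526 for Vcam1 to 0.588 for Nfkbib, and from rho = -0.643 for Nfkb2 to 0.524 for Nfkbib. For Nfkbib, the strongest by r, the exact permutation p was 0.126 (Benjamini-Hochberg 0.486 over 9 members) and r was 0.01 without baculovirus replicate 4 and PBS replicate 2. Without these arrays r ran from -0.812 for Nfkb1 to 0.445 for Nfkbia. For Nfkb2, the strongest by rho, the exact permutation p was 0.0962 (Benjamini-Hochberg 0.703). With this difference as a covariate, added after seeing the data, the 7 members above the filter had log2 fold changes between -0.10 for Rela and 0.14 for Nfkb1.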

How the data were processed

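Deposited values are intensities of 8 Affymetrix Rat Genome 230 2.0 arrays on a linear scale, read with GCOS per the submitters' processing notes. Those notes also name GCRMA, and the labels say that GeneSpring values were not supplied, so which algorithm made the values is not stated. Trimmed of 2% at each end, every array had a mean of 100.02, so the authors had scaled each array. Columns were assigned by sample name, and 57 control probe sets were left out. The platform annotation names 1 symbol for 20826 probe sets, several for 436 and none for 9780. A gene was represented by its probe set with the highest mean.

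The scale of analysis was log2(intensity + 16). On it the array medians lay between 5.74 and 5.85, so no further normalization was made. The level filter kept probe sets whose mean exceeded the 40th percentile, 18625 in all. Groups were compared in R 4.3.3 with limma 3.58.1 (lmFit, eBayes with a variance trend, no block), two-sided, and p-values were adjusted by Benjamini-Hochberg over all of them. Unless stated, errors of fold changes are limma standard errors. Precision is set by how few arrays there are. The fit was tested on simulated data with known changes. Correlations used exact two-sided permutation tests over all pairings.

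Named were all members, the 3 tested genes with the smallest p of each list, and, for Nfkbia and Icam1, the 3 genes with the highest r. Other genes below the filter, Ttr, Cxcl10 and the 4 lower endothelial markers were named after their values were seen. Members and lists were chosen with earlier results of these data known. Same-numbered arrays of the groups did not deviate together over the probe sets tested (r between -0.005 and 0.02), so the numbers gave no sign of pairing. This does not settle whether arrays share a rat. Alternatives were pseudocounts, normalizations, filters, variance models, weighted arrays, the methods' t-test, the replicate block and fits without each array in turn.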

Additional observations from a re-analysis of the deposited data

How the results depend on the processing

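No member and no probe set passed the adjusted threshold under any of the 19 alternatives fixed at the start, nor with the beta-actin covariate. Over all probe sets the lowest limma adjusted p was 0.272 in the main fit. With 1 array left out it lay between 0.0666, without PBS replicate 4, and 0.997, without baculovirus replicate 2. In these 2 fits 1957 and 709 probe sets were under an unadjusted p of 0.05, against 1254 in the main fit. The lowest limma adjusted p of a member was 0.639 (Nfkb1, without PBS replicate 4). Leaving out single arrays changed the sign of 6 members' log2 fold changes. Nfkbia ran from -0.0312 to 0.178, Rela from -0.210 to 0.0603, Vcam1 from -0.129 to 0.0241 and Tnfaip3 from -0.121 to 0.0725. Fitted without the filter, Icam1 ran from -0.0553 (without baculovirus replicate 3) to 0.240 and Nfkb2 from -0.191 to 0.0320 (without PBS replicate 3). Nfkb1 and Nfkbib kept a higher mean after inactivated baculovirus under all 20 alternatives and Relb under the 19 it could be tested in, since it was below the filter at the 60th percentile. The lowest of these values were 0.0463, 0.0552 and 0.0375. With the replicate block 0 members and 0 probe sets passed, and the members' lowest adjusted p was 0.881. The median of the kinase list moved to -0.106 with a filter at the 60th percentile, where fewer genes were tested. With 1 array left out, the kinase median lay between -0.0615 and 0.00440, the receptor median between -0.0729 and 0.0448 and the members' median between -0.0136 and 0.0603. That of the ubiquitin editing list moved to 0.00161 with quantile normalization, and lay between 0.00815 and 0.0787 when 1 array was left out, while the endothelial median lay between 0.0367 and 0.108. The cause of these shifts was not tested. Averaging a gene's probe sets changes nothing, since each member had 1. Low signal limits what Icam1 and Nfkb2 can show.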
